A study of Mus musculus with 4 samples.

Results

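Potassium channel genes were followed in mouse tumour cells that had lost Smarcb1 and regained it from a virus. The genes were taken by symbol, as every gene of the platform annotation named Kcn, then letters, then a number, and 87 of the 19938 genes with a probe set of their own met this rule. For a gene with several such probe sets the one with the highest mean was used, and each of the 87 symbols was also the current RefSeq symbol. The rule takes auxiliary and modifier subunits as well as pore-forming ones, so a member is not always a channel by itself. Of the 87 genes, 41 (47.1%) had a mean signal at or above the 30th percentile of gene means (log2 4.27), the level above which genes were tested, against 70.0% of all genes by the construction of that level.

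Potassium channels let potassium leave the cell and so hold the membrane potential negative. Voltage-gated channels repolarise excitable cells, calcium-activated channels couple the membrane potential to intracellular calcium, inward rectifiers and tandem-pore (K2P) channels carry resting current, and auxiliary subunits set gating and delivery to the surface. In dividing non-excitable cells, tumour cells among them, calcium-activated and some voltage-gated channels are known to shape calcium entry and cell volume.

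RNA came from cell lines 365 and 167, each grown from a Smarcb1-deficient soft tissue tumour of a p53-null, Smarcb1-heterozygous mouse of mixed C57BL6/SV129J background. Each line was infected with the retroviral vector pMIG carrying Smarcb1, which encodes a subunit of SWI/SNF chromatin remodellers, or with empty pMIG as control, and total RNA was taken 3 days later. All 4 groups lack p53, and none retains the tumour's surrounding tissue. Each combination of line and vector was hybridised to 1 array, so a response within 1 line stands without replicate or test. A limma fit across all 13956 tested genes, with terms for line and vector, gives the p-values, and its residual is how far the responses of the lines lie apart.

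The Smarcb1 probe set was at log2 9.61 with Smarcb1 and 6.01 with empty vector in line 365, and at 7.83 and 4.61 in line 167, so the arrays match their vector labels. Marker lists of other cell types were uneven, with dim and bright members. Of 12 leukocyte markers on the array 3 were tested, and Ptprc, which defines leukocytes, lay between 3.66 and 4.06 on the 4 arrays, below the test level. Cd68 of the same list lay between 8.18 and 9.95. Of 14 neuronal markers 12 were tested, with Rbfox3 between 4.59 and 4.77 and Nefl between 6.89 and 10.68. Of 11 smooth muscle and pericyte markers 10 were tested, with Myh11 between 4.94 and 5.37 and Smtn between 8.05 and 8.58. Of 10 endothelial markers 6 were tested. Of these, Cdh5 and Esam were bright in line 365 and not in line 167, with Cdh5 at 8.29 with Smarcb1 and 9.06 with empty vector in line 365 against 3.64 and 3.78 in line 167, while Pecam1 lay between 3.95 and 4.35 on the 4 arrays. Of 13 skeletal muscle markers 8 were tested, with the regulator Myod1 between 4.30 and 4.71. The acetylcholine receptor gene Chrna1 of that list was at 6.89 with Smarcb1 and 7.84 with empty vector in line 365, against 3.94 and 3.90 in line 167.

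**Figure D1:**
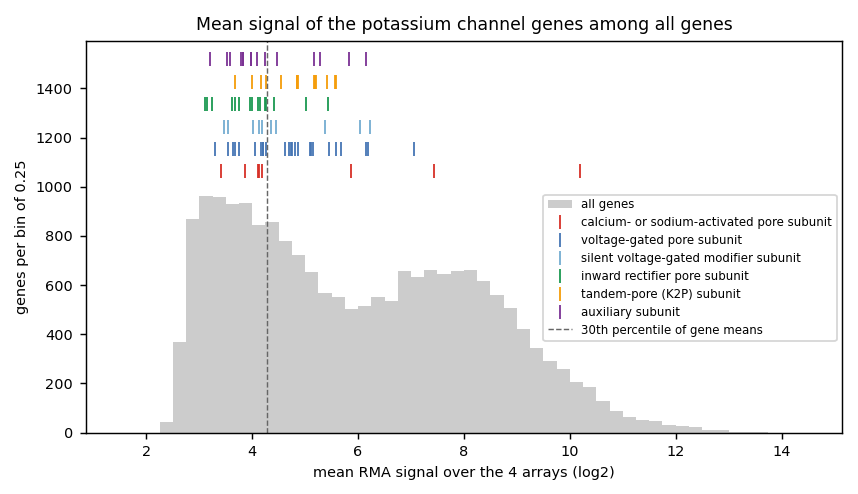
Mean RMA signal over the 4 arrays (log2, horizontal axis) for all 19938 genes (grey histogram, genes per bin of 0.25) and for the 87 potassium channel genes (1 tick per gene, a row per class); the dashed line is the 30th percentile of gene means, 4.27. Most ticks crowd around and below the dashed line, and the single tick beyond 10 is Kcnn4.

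Most of these genes gave dim signals. Only 10 of the 87 reached the 50th percentile of gene means, and 46 stayed under the test level, with means from log2 3.11 to 4.27. Of these 46, 29 were below the level on each of the 4 arrays and 17 exceeded it on at least 1. The tested member nearest the level was Kcns1, with a mean of 4.35, and the untested member nearest it was Kcnj14, at 4.27. Signals of different probe sets also depend on how well their probes bind, so the order of genes is an order of signals and not of transcript numbers. In that order Kcnn4 stood at log2 10.19 (the 96.4 percentile of gene means), followed by Kcnn3 at 7.44 and Kcnh2 at 7.07. The tested members were 10 of 14 tandem-pore subunits, 15 of 25 voltage-gated pore subunits, 5 of 10 silent modifier subunits, 5 of 15 auxiliary subunits, 3 of 8 calcium- or sodium-activated subunits and 3 of 15 inward rectifiers.

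With Smarcb1, 0 of the 41 tested members passed a limma adjusted p below 0.05, where 0.0645% of all tested genes passed. With 1 residual degree of freedom the fit leaves wide intervals, so that changes past 2-fold remain possible for members that did not pass, among them Kcnn3 with a 95% interval from -1.92 to 0.21 and Kcnh5 with one from -1.95 to 1.57 on the log2 scale. Before adjustment, 2 members had a limma p below 0.05, Kcnn4 and Kcnmb4, that is 4.88% of members against 11.6% of all tested genes. Kcnmb4 reached the test level only through its Smarcb1 arrays, so its place in this count follows from the filter. With Smarcb1, 12 members were higher in both lines (29.3%, against 26.0% of all tested genes), 9 were lower in both (22.0%, against 34.1%) and 20 had opposite signs (48.8%, against 39.8%). Taken over the tested members, the median change was 0.00018 in line 365 and 0.03 in line 167 on the log2 scale, beside -0.0059 and -0.06 over all tested genes. The median size of change, whatever its sign, was 0.12 in line 365 and 0.25 in line 167, beside 0.19 and 0.22 over all tested genes.

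**Figure D2:**
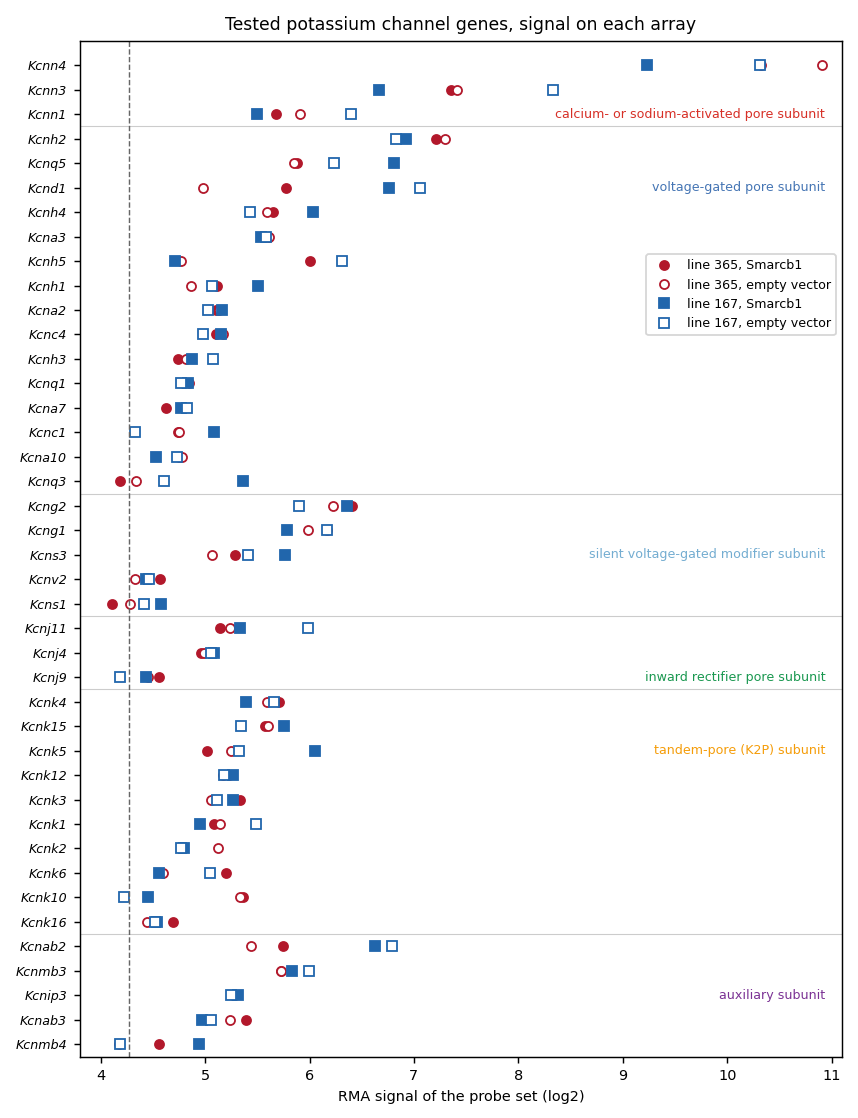
RMA signal (log2, horizontal axis) of the 41 tested potassium channel genes on each of the 4 arrays (circles line 365, squares line 167, filled Smarcb1, open empty vector), grouped by class; the dashed line is the test level of 4.27. The 4 points of Kcnn4, Kcnn3, Kcnd1, Kcnh5, Kcnab2, Kcnk5, Kcnk10 and Kcnq3 spread over more than 1 unit, and those of the other genes over less.

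The brightest signals, those of Kcnn4 and Kcnn3, belonged to the calcium-activated SK and IK genes. Kcnn4 encodes the intermediate-conductance channel KCa3.1, which opens on binding of calcium through calmodulin and sustains calcium entry in lymphocytes and other dividing cells. Its signal was log2 10.32 with Smarcb1 and 10.91 with empty vector in line 365, and 9.23 with Smarcb1 and 10.32 with empty vector in line 167. In both lines the Smarcb1 array was the lower one, by 1.5-fold in line 365 and 2.12-fold in line 167, although the Smarcb1 array of line 365 was as bright as the empty-vector array of line 167. The mean change was -0.84 ± 0.16 (moderated SE, n = 2 lines), with a 95% interval from -1.26 to -0.41, unadjusted p = 0.0041 and limma adjusted p = 0.190 over all tested genes. Kcnn4 was the 1 tested member at least 1.5-fold lower in both lines (2.44% of members, against 1.35% of all tested genes), and 0 members were at least 1.5-fold higher in both (against 2.79%).

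Kcnn3 and Kcnn1 encode the small-conductance channels SK3 and SK1, of a family that contributes to afterhyperpolarisation in neurons. Kcnn3 had log2 7.36 with Smarcb1 and 7.41 with empty vector in line 365, and 6.67 with Smarcb1 and 8.33 with empty vector in line 167. Its arrays of line 365 were nearly level, and those of line 167 lay 3.16-fold apart, with the Smarcb1 array lower. Kcnn1 had 5.68 with Smarcb1 and 5.91 with empty vector in line 365, and 5.50 and 6.39 in line 167, a difference of -0.23 and -0.89. The mean changes were -0.86 ± 0.41 for Kcnn3 and -0.56 ± 0.24 for Kcnn1 (moderated SE, n = 2 lines), with limma adjusted p = 0.510 and 0.469. The remaining gene of the family, Kcnn2 for SK2, lay below the test level on all 4 arrays, between 3.29 and 3.53.

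All 3 tested SK and IK genes had the lower signal with Smarcb1 in each line, beside 34.1% of all tested genes. Of the 4 tested Kv1 genes, 3 were also lower in both lines. The SK and IK medians were -0.23 in line 365 and -1.08 in line 167, and 0 of the 3 passed the test. In line 365 Kcnn3 differed by only -0.06, where the median size of change over all tested genes was 0.19. In line 167 the summed linear signal of 14 neuronal markers was lower with Smarcb1, at 1133 against 2389 with empty vector, while in line 365 it was 1178 against 1032. The list did not move one way, with 4 of its 12 tested genes higher and 5 lower in both lines. The lower sum in line 167 followed the neurofilament gene Nefl, at log2 7.26 with Smarcb1 and 10.68 with empty vector. It is therefore not a fall of the list as a whole. Nefm and Syp were lower in both lines. Tubb3, a neuronal tubulin, was higher by 2.35 in line 365 and 1.74 in line 167, and Stmn2 by 0.87 and 2.21, while 0 genes of the list passed the test for Smarcb1. Neuronal Rbfox3 stayed between 4.59 and 4.77 on all arrays. The summed signal of 11 smooth muscle and pericyte markers was 609 and 585 in line 365 and 3816 and 1251 in line 167, with Smarcb1 and with empty vector. The summed signal of the 12 leukocyte markers was lower with Smarcb1 in both lines, at 487 against 1174 in line 365 and 598 against 819 in line 167, and followed the lysosomal gene Cd68 (8.18 against 9.95, and 8.69 against 9.32). The part of any of these in the SK and IK values was not tested, and fewer cells with the RNA cannot be told apart from less RNA per cell.

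**Figure D3:**
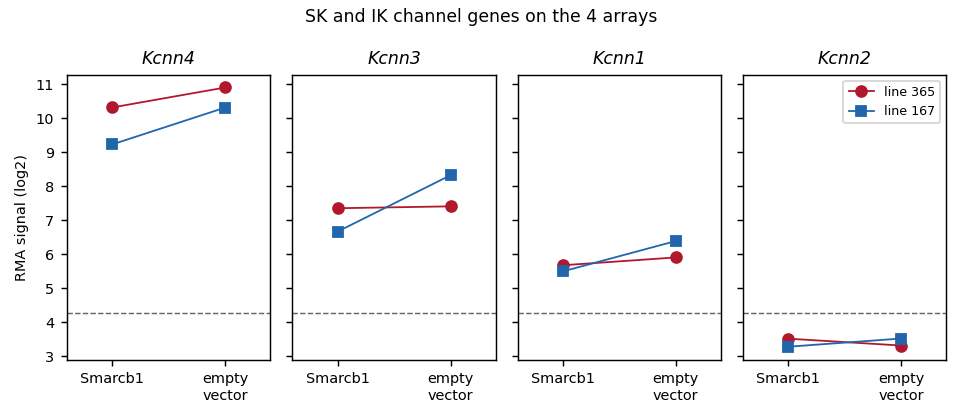
RMA signal (log2, vertical axis) of the SK and IK genes with Smarcb1 (left in each panel) and with empty vector (right), joined by line (circles line 365, squares line 167); the dashed line is the test level of 4.27. Kcnn4 slopes upward toward empty vector in both lines, Kcnn3 and Kcnn1 mainly in line 167, and Kcnn2 stays under the dashed line.

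The 250 bases before the annotated starts of the SK and IK genes are shown because these genes carried the same sign. They come from RefSeq (GRCm38.p6), read 5′ to 3′ on the gene's strand, from the first start listed for each gene. The windows of Kcnn4 and Kcnn1 lie inside the annotated span of the gene, downstream of its outermost end, and Kcnn1 has 2 starts listed. Capitals mark exact matches, on either strand, to TGAGTCA (the AP-1 element), TGACGTCA (the cAMP response element), CACGTG (an E-box), GGGCGG (a GC box) or CCAAT; none of these motifs overlap in the sequences shown.
Kcnn4, chr7:24370013-24370262, plus strand: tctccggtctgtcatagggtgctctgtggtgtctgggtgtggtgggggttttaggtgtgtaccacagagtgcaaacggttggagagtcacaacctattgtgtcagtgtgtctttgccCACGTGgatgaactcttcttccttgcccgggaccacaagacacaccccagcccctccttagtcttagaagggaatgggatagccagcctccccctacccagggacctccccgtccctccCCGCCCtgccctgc
Kcnn3, chr3:89519914-89520163, plus strand: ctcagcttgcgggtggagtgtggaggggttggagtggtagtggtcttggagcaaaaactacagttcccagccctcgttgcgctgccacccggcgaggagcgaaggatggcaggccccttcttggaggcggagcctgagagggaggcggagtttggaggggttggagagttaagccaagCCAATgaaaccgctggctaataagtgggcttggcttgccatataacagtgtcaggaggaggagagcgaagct
Kcnn1, chr8:70863259-70863508, minus strand: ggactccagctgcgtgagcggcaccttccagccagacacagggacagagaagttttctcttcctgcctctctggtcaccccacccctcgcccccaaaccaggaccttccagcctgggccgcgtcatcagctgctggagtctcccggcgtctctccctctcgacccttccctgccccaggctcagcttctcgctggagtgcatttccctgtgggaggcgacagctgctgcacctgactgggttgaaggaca
Kcnn4 held an E-box and a GC box, Kcnn3 a CCAAT box, and Kcnn1 held no match in this window. Over all 32851 RefSeq promoters of this table, 6.02% held CACGTG, 32.7% GGGCGG, 33.8% CCAAT, 4.46% TGAGTCA and 1.55% TGACGTCA in the same window. Over the 91 promoters of the 66 members listed there, the shares were 6.59%, 44.0%, 29.7%, 2.20% and 0 of 91. These are matches of letters, not binding sites.

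The large-conductance BK channel gene Kcnma1 was below the test level, with 4.37 with Smarcb1 and 3.87 with empty vector in line 365 and 4.16 and 4.04 in line 167. A second probe set of Kcnma1 was dimmer still, between 3.46 and 3.75. Among its β subunits, which tune calcium sensitivity, Kcnmb4 had log2 4.56 with Smarcb1 and 4.18 with empty vector in line 365, and 4.95 and 4.18 in line 167. Both Smarcb1 arrays were above both empty-vector arrays, which lay just under the test level, so that the size of the change is uncertain and its p is not given. Kcnmb3 had 5.73 with Smarcb1 and 5.73 with empty vector in line 365, and 5.84 and 5.99 in line 167. Of the other auxiliary subunits, the KChIP gene Kcnip3, whose product binds calcium and Kv4 channels, lay between 5.25 and 5.31, and the Kvβ gene Kcnab3 between 4.97 and 5.40. The 4 MinK-related Kcne genes, whose products assemble with KCNQ channels, were all under the level by their means. The sodium-activated channel genes Kcnt1 and Kcnt2 and the sperm channel gene Kcnu1 had means under the test level. Kcnt2 reached 5.20 with Smarcb1 and 4.32 with empty vector in line 167, against 3.47 and 3.54 in line 365.

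Among the voltage-gated pore genes, Kcnh5 was the member with the widest opposite differences in the lines. Kcnh5 encodes an ether-à-go-go (EAG) channel of neurons. Its signal was log2 6.002 with Smarcb1 and 4.77 with empty vector in line 365, and 4.71 with Smarcb1 and 6.31 with empty vector in line 167. The changes were 1.23 and -1.61, and Kcnh5 was the 1 member (2.44%) at least 2-fold changed with opposite signs in the lines, against 0.043% of all tested genes. At a fold of 1.5 it was again the 1 member with opposite signs, against 0.494%. With 1 array per line and vector this difference was not tested, and the mean change was -0.19 ± 0.67 (limma adjusted p = 0.939).

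Among the other voltage-gated genes, Kcnh2, which encodes the ERG channel of cardiac repolarisation, had log2 7.21 with Smarcb1 and 7.30 with empty vector in line 365, and 6.92 and 6.83 in line 167. Its mean change was -0.0010 with a 95% interval from -0.49 to 0.48 and limma adjusted p = 0.999, so changes of up to about that size in either direction were not resolved. The KCNQ (Kv7) genes, whose channels carry the M-current of neurons or repolarise epithelia and heart, were all 3 tested. Kcnq5 had 5.88 and 5.85 in line 365 and 6.81 and 6.23 in line 167, with Smarcb1 and with empty vector, and Kcnq3 had 4.18 and 4.34 in line 365 and 5.37 and 4.61 in line 167. With Smarcb1, Kcnq5 differed by 0.03 in line 365 and 0.58 in line 167, and Kcnq3 by -0.16 and 0.76. Kcnq1 stayed between 4.77 and 4.84 on all arrays.

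The Shaker (Kv1) genes, whose channels set firing in axons and calcium entry in T cells, had nearly level arrays. Kcna3, the T-cell channel Kv1.3, lay between 5.53 and 5.62, Kcna2 between 5.02 and 5.16, Kcna7 between 4.63 and 4.82 and Kcna10 between 4.53 and 4.78. The fast-firing Kv3 gene Kcnc1 had 4.75 with Smarcb1 and 4.75 with empty vector in line 365, and 5.08 and 4.33 in line 167. Kcnc4 of the same family lay between 4.98 and 5.17. Kcnh4 of the ELK group was higher with Smarcb1 by 0.05 in line 365 and 0.61 in line 167, and the EAG gene Kcnh1 by 0.25 and 0.44. For the 15 tested voltage-gated genes the median change was -0.03 in line 365 and 0.09 in line 167, with 3 higher and 4 lower in both lines and a lowest limma adjusted p of 0.518.

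Silent modifier subunits do not form channels alone but join Kv2 subunits and alter their gating. Kcng2 had log2 6.41 with Smarcb1 and 6.23 with empty vector in line 365, and 6.36 and 5.90 in line 167, with a mean change of 0.32 ± 0.20 (moderated SE, n = 2 lines, limma adjusted p = 0.593). Kcng1 had 6.17 and 5.98 in line 365 and 5.79 and 6.17 in line 167, so its changes had opposite signs. Kcns3 was higher with Smarcb1 by 0.22 in line 365 and 0.35 in line 167. The Kv2 pore gene analysed here, Kcnb2, had a mean of 4.06, under the test level.

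Inward rectifiers were the class with the smallest share tested. The brightest of them was Kcnj11, which encodes Kir6.2, the pore of the ATP-sensitive channel that couples metabolism to membrane potential. It had log2 5.14 with Smarcb1 and 5.24 with empty vector in line 365, and 5.33 and 5.99 in line 167. The empty-vector array of line 167 stood above the other 3, which lay between 5.14 and 5.33. Its sulphonylurea receptor partner Abcc8 was highest on the same array, with 5.05 and 5.24 in line 365 and 6.01 and 6.67 in line 167, with Smarcb1 and with empty vector. The mean changes were -0.38 for Kcnj11 (limma adjusted p = 0.563) and -0.43 for Abcc8 (limma adjusted p = 0.521). Kcnj4 lay between 4.96 and 5.08 and Kcnj9 between 4.19 and 4.56, and the other 12 inward rectifier genes had means from 3.11 to 4.27.

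Tandem-pore channels give the background current that holds the resting potential. Kcnk5, an acid-sensitive TASK-type channel gene, had log2 5.01 with Smarcb1 and 5.25 with empty vector in line 365, and 6.05 and 5.32 in line 167. The difference between Smarcb1 and empty vector was 0.60 in line 365 and -0.49 in line 167 for Kcnk6, and -0.06 and -0.54 for Kcnk1, the TWIK-1 gene. For the mechanosensitive TREK-1 gene Kcnk2 it was -0.35 and 0.03, and for the related TRAAK gene Kcnk4 it was 0.12 and -0.27. For the acid-sensitive TASK-1 gene Kcnk3 it was 0.29 and 0.15. Kcnk12 lay between 5.17 and 5.27, Kcnk15 between 5.34 and 5.75 and Kcnk16 between 4.45 and 4.69. The class medians were 0.04 in line 365 and 0.06 in line 167, with 4 of 10 higher and 1 lower in both lines and a lowest limma adjusted p of 0.610.

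**Figure D4:**
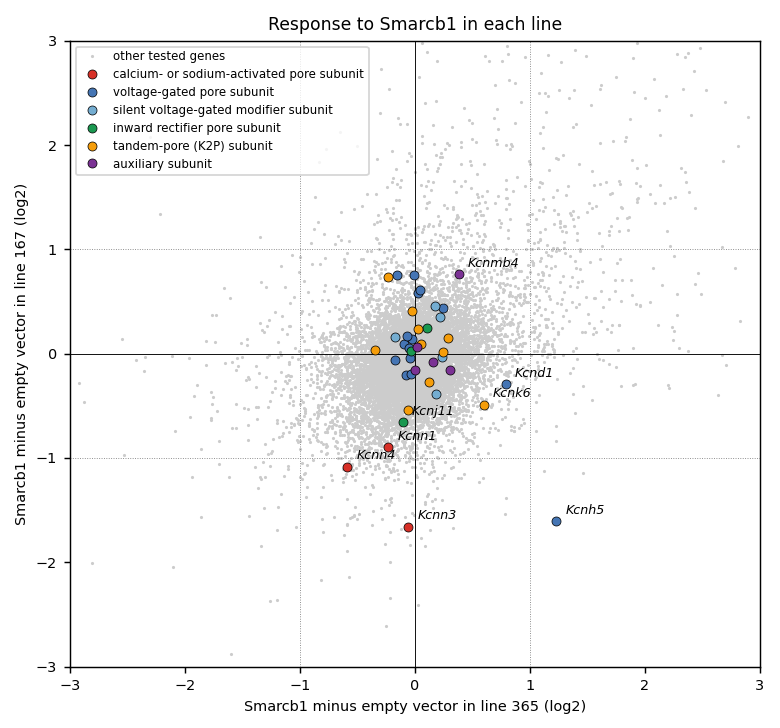
Smarcb1 minus empty vector (log2) in line 365 (horizontal axis) and line 167 (vertical axis) for the 41 tested potassium channel genes (coloured by class) and all other tested genes (grey); dotted lines mark a 2-fold change and 77 genes lie outside the axes. Kcnh5 sits alone at the lower right (1.23 and -1.61), Kcnn4, Kcnn3 and Kcnn1 below zero on both axes, and most members near the centre.

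At a fold of 2, Smarcb1 gave 1 member higher in line 365, Kcnh5 (2.44%, against 2.84% of all tested genes), and 0 lower (against 1.17%). In line 167 it gave 0 members higher (against 3.4%) and 3 lower, Kcnn4, Kcnn3 and Kcnh5 (7.32%, against 1.49%). In both lines at once 0 members were at least 2-fold higher (against 1.33%) and 0 lower (against 0.186%). At a fold of 1.5, line 365 had 3 members higher (7.32%, against 6.49%) and 1 lower (2.44%, against 4.75%). Line 167 had 5 higher (12.2%, against 6.93%) and 5 lower (12.2%, against 7.8%).

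More members passed the test between the lines than between the vectors. In the limma fit 4 of 41 members differed between line 365 and line 167 (9.76%, against 10.9% of all tested genes), 2 of them higher in line 365 (4.88%, against 5.31%) and 2 lower (4.88%, against 5.64%). These shares are close to those of all tested genes. At an unadjusted p below 0.05 there were 6 members (14.6%, against 30.8%), the others being Kcnq5 and Kcnq3. The line 365 arrays of Kcnq3 averaged under the test level, which it reached through line 167, so its place in this count depends on the filter. Summed signals of some marker lists also lay apart between the lines. The summed linear signal of 10 endothelial markers was 845 in line 365 and 215 in line 167 with Smarcb1, and 1002 in line 365 and 196 in line 167 with empty vector. The smooth muscle and pericyte sum given above was lower in line 365, and the skeletal muscle sum was 512 in line 365 and 431 in line 167 with Smarcb1, and 639 in line 365 and 418 in line 167 with empty vector. The endothelial difference followed Cdh5 and Esam, and the skeletal muscle difference followed Chrna1, so neither describes its list as a whole. In the limma fit the called markers were Cdh5, Esam, Chrna1 and Gap43, higher in line 365, and Cnn1, Pdgfrb and Map2, lower. Cdh5 and Chrna1 were below the test level on both arrays of line 167. They were therefore tested only through line 365, where they were high. Their part in the line differences of these channel genes was not tested.

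Kcnk10 and Kcnn4 were higher in line 365. Kcnk10 encodes TREK-2, a mechanosensitive and heat-sensitive tandem-pore channel, and had log2 5.36 in line 365 and 4.46 in line 167 with Smarcb1, and 5.33 in line 365 and 4.22 in line 167 with empty vector. Both line 365 arrays were above both line 167 arrays, and the mean difference was 1.01 ± 0.16 (moderated SE, n = 2 vectors, limma adjusted p = 0.0279). The empty-vector array of line 167 lay below the test level and its Smarcb1 array little above it, so the size of the difference is uncertain. Kcnn4, with the signals given above, was 1.09 higher in line 365 with Smarcb1 and 0.59 higher with empty vector, a mean of 0.84 ± 0.16 (moderated SE, n = 2 vectors, limma adjusted p = 0.0429). Because the Smarcb1 array of line 365 and the empty-vector array of line 167 were both at 10.32, the lines do not separate for Kcnn4 unless the vector is taken into account. With the line as the only term the call ended (limma adjusted p = 0.296), and without the intensity trend the adjusted p was 0.0714.

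Kcnd1 and Kcnab2 were lower in line 365. Kcnd1 encodes Kv4.1, a fast-inactivating A-type channel, and had log2 5.78 in line 365 and 6.76 in line 167 with Smarcb1, and 4.98 in line 365 and 7.05 in line 167 with empty vector. The line difference was -0.98 with Smarcb1 and -2.07 with empty vector, a mean of -1.53 ± 0.31 (moderated SE, n = 2 vectors, limma adjusted p = 0.0485), and without the intensity trend the adjusted p was 0.0562. With the line as the only term it was 0.0765. Kcnab2 encodes Kvβ2, an auxiliary subunit of the aldo-keto reductase fold that carries Kv1 channels to the surface. It had 5.75 in line 365 and 6.63 in line 167 with Smarcb1, and 5.44 in line 365 and 6.79 in line 167 with empty vector. The mean difference was -1.11 ± 0.21 (moderated SE, n = 2 vectors, limma adjusted p = 0.0432), and with the line as the only term the adjusted p was 0.0623. For both genes the line 365 arrays were below the line 167 arrays.

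The 250 bases before the first listed RefSeq start (GRCm38.p6) are shown for the line-dependent genes that the table holds beside Kcnn4, with capitals for the same motifs on either strand. Kcnk10 has 2 starts listed and Kcnab2 has 3, so the motifs and CpG ratios below describe only the first of them.
Kcnk10, chr12:98578214-98578463, minus strand: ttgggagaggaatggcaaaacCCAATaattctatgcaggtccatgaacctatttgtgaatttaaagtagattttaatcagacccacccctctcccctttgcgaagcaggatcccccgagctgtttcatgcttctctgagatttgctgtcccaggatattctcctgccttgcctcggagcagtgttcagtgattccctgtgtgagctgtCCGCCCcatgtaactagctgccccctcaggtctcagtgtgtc
Kcnab2, chr4:152477550-152477799, minus strand: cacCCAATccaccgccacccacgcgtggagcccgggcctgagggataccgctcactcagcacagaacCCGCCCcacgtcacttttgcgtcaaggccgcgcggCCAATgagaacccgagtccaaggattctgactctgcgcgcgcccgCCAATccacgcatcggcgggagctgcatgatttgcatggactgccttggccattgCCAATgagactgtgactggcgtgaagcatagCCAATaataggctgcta
Kcnk10 held a CCAAT box and a GC box, and Kcnab2 held 5 CCAAT boxes and a GC box. In base composition over the 300 bases that include the first 50 after the start, the ratio of observed to expected CpG was 0.361 for Kcnk10, 0.850 for Kcnab2 and 0.226 for Kcnn4. Among members with a listed promoter, 12 of 30 tested ones (40.0%) and 8 of 36 below the level (22.2%) had a ratio of at least 0.6. For all genes the shares were 68.3% of 11031 tested genes and 13.7% of 4532 below the level. These shares describe the first listed start, which need not be the one used in these cells.

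**Figure D5:**
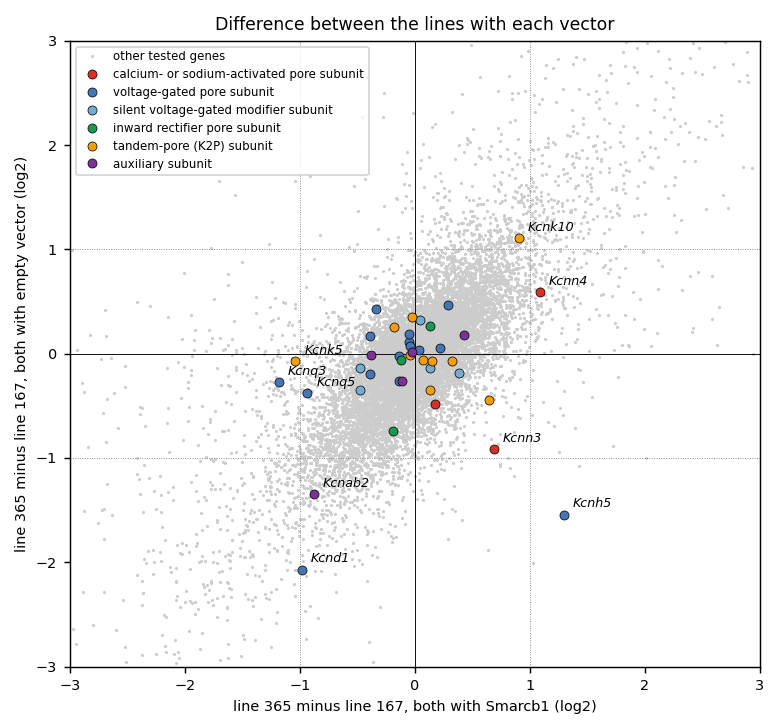
Line 365 minus line 167 (log2) with Smarcb1 (horizontal axis) and with empty vector (vertical axis) for the 41 tested potassium channel genes (coloured by class) and all other tested genes (grey); dotted lines mark a 2-fold difference and 214 genes lie outside the axes. Kcnk10 and Kcnn4 lie at the upper right, Kcnd1 and Kcnab2 at the lower left, and Kcnh5 and Kcnn3 off the diagonal at the lower right.

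At a fold of 2 the members apart differed with the vector. With Smarcb1, Kcnn4 and Kcnh5 were higher in line 365 (4.88%, against 4.42% of all tested genes) and Kcnk5 and Kcnq3 lower (4.88%, against 5.09%). With empty vector, Kcnk10 was higher (2.44%, against 5.62%) and Kcnab2, Kcnd1 and Kcnh5 lower (7.32%, against 7.24%). With both vectors 0 members were at least 2-fold higher in line 365 (against 2.94%) and 0 lower (against 3.21%). At a fold of 1.5 with both vectors, Kcnn4 and Kcnk10 were higher in line 365 (4.88%, against 7.14%) and Kcnab2 and Kcnd1 lower (4.88%, against 7.75%). These counts carry no test.

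Genes that work with these channels gave 0 calls for Smarcb1 in any of the lists examined. The counts below stand against 26.0% of all tested genes higher and 34.1% lower in both lines, and against 5.31% called higher and 5.64% called lower in line 365, and they carry no test of a list. Of the 11 tested channel partners outside the symbol rule, 4 were higher and 4 lower in both lines. The caveolar scaffold gene Cav1 was higher with Smarcb1 by 4.04 in line 365 and 1.68 in line 167 (limma adjusted p = 0.196). Between the lines 2 partners were lower in line 365, Abcc8 with a mean of -1.20 (limma adjusted p = 0.0358) and Fgf13, a regulator of sodium channels, with -0.88 (limma adjusted p = 0.0365).

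The list of sodium pump and cotransporter genes, with regulators, had 21 tested genes with 5 higher and 6 lower in both lines. Between the lines 4 were higher and 0 lower in line 365, the pump β subunit Atp1b1 and the small pump regulators Fxyd2, Fxyd5 and Fxyd6. Fxyd2 had the widest difference, at log2 7.81 in line 365 and 5.05 in line 167 with Smarcb1 and 8.96 in line 365 and 5.81 in line 167 with empty vector (limma adjusted p = 0.00501). Of 11 tested voltage-gated calcium channel genes, 6 were higher and 0 lower in both lines. The T-type channel gene Cacna1i was higher in line 365 by a mean of 2.05 (limma adjusted p = 0.0199), and the β subunit gene Cacnb1 was lower, with a mean of -1.22 (limma adjusted p = 0.0254). Of the HCN and cyclic nucleotide-gated channels 4 of 9 were tested, with 0 higher and 1 lower in both lines, and of the voltage-gated sodium channels 1 of 12, and both lists gave 0 calls between the lines.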

How the data were processed

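Per the submitters' processing notes, the authors used RMA and Affymetrix Expression Console, and the deposited signals are on the log2 scale. Versions, settings and build were not given in the sources used here. RMA quantile-normalizes the arrays, so a change in total RNA per cell cannot be seen, and the median over all 35556 probe sets lay between 5.03 and 5.07 on the 4 arrays. The platform annotation gives 1 symbol for 21789 probe sets, several for 1621 and does not list 12146. The members have 90 probe sets, and 3 members have more than 1. Each gene was represented by its brightest single-symbol probe set. The fit left out genes whose mean fell short of the 30th percentile.

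The fit used limma 3.58.1 in R 4.3.3 (lmFit and eBayes with an intensity trend) with terms for cell line and vector. It has 1 residual degree of freedom and 3.75 prior degrees of freedom, and p-values are two-sided and Benjamini-Hochberg adjusted over 13956 genes at 0.05. Standard errors are moderated across genes and do not show the spread of a single gene. The lines pair the arrays, and arrays of a line deviated together from their vector means (r = 0.770 across genes). The labels name no repeat cultures, so p-values measure only the spread between these arrays, whose number limits the precision. The fit was tested on simulated data. The members, gene lists, promoter motifs and rules were chosen with earlier results of these data known. Values on all 4 arrays were given for members past the test, at least 2-fold changed in a line, at least 4-fold apart between lines, or among the 10 brightest. Other members were named by class, after their values were seen.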

Additional observations from a re-analysis of the deposited data

Results flagged for a closer look

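Kcnh5 moved in opposite directions in the lines. The change with Smarcb1 was 1.23 in line 365 and -1.61 in line 167, so the change in line 365 exceeded that in line 167 by 2.84 on the log2 scale. Each change rests on 1 array against 1 array, and the difference was not tested. The gene has 1 probe set in the annotation.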

How the results depend on the processing

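The count of 0 members called for Smarcb1 stayed at 0 in limma under every alternative run, which were no filter, a filter at the 50th percentile, quantile normalization, cyclic loess, no intensity trend, no cell line in the model (no replicate block), the mean of all probe sets and an adjusted p of 0.10, while calls over all genes ran from 0 to 103. The count of 4 members called between the lines became 2 without the intensity trend (Kcnab2 and Kcnk10) and 1 with no replicate block (Kcnk10). It was 5 without the filter, with Kcnt2 added, and 3 with the 50th percentile filter, which removed Kcnk10. Adjusted p for Kcnd1 with no replicate block was 0.0765. At 1.5-fold, 1 member changed the same way in both lines instead of 0 at 2-fold. The 50th percentile held 10 members instead of 41, and the mean of all probe sets 44. Over 12 members named by rule, 5 of 164 refitted values lost a call between the lines, and 157 kept their direction and their side of the threshold. Only quantile normalization and cyclic loess could alter the value of a difference for these members, which have 1 probe set each. Under the other refits the direction was fixed in advance, so the tally says little about direction. The mean change of Kcnh2 with Smarcb1, near 0 and not called, turned to 0.03 under quantile normalization and 0.05 under cyclic loess. Leaving out line 167 or line 365 leaves the other line's own value with no test, and its sign differed from the mean for 3 of the 12 in each case. The dimness of most members limits these data.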
